A study of Mus musculus with 2 samples.

Results

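The core and naive pluripotency factors are 10 transcription factors that hold mouse embryonic stem cells in an undifferentiated state: Pou5f1 (Oct4), Sox2, Nanog, Esrrb, Nr5a2, Nr0b1, Tbx3, Tfcp2l1, Zfp42 (Rex1) and Prdm14. The set is defined by gene symbol, and was drawn up with earlier results of these data known. All 10 were found among 23370 genes with a symbol of their own. Each had 1 probe set, the group of array probes that reports on one transcript.

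RNA came from ES-D3 cells, an established embryonic stem cell line of strain 129S2/SvPas. The 6-well plate group was grown in standard tissue culture wells, and the microchamber group in a microfluidic chamber with minimal perfusion. Medium for both held 15% serum and 1000 U of LIF (leukaemia inhibitory factor, a cytokine that sustains self-renewal), the seeding density was 20000 cells per square centimetre, and RNA was taken on day 3. Each group had 1 Affymetrix Mouse Gene 2.0 ST array, so there was no replicate, and the effects of the vessel, the culture, the RNA preparation and the array cannot be told apart. No test between the groups could be made. Values are on the log2 scale of the authors' RMA normalization. Each difference is the microchamber value less the plate value, so its sign is opposite to that in the authors' deposited table.

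Pou5f1 and Sox2 bind DNA together and, with Nanog, activate one another and a wide set of target genes. The naive factors form a further layer that is tied to LIF and other signals, is active in the cells of the early epiblast, and is switched off as cells prepare to differentiate. In serum and LIF, cells of one culture are known to vary in their level of Nanog, Zfp42, Tbx3 and Esrrb. An array of a whole culture cannot tell a shift in the share of cells that express a gene from a shift in the RNA of each cell.

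The promoters of 8 of the 10 factors were matched by symbol in RefSeq sequences (GRCm38.p6), as 12 windows of 250 bases before to 50 bases after a start. Those without an entry were Tbx3 and Prdm14. The windows below are shown because Sox2, Nanog and Zfp42 hold a match to the octamer bound by Pou5f1 or to its core, Pou5f1 encodes that factor, and Nr5a2 had the highest difference of the 10 genes. Capitals mark matches on either strand to the octamer ATGCAAAT, its 7-letter core ATGCAAA, the SOX motif CATTGTT, its 6-letter core CATTGT, or the KLF and SP motif GGGCGGG. Their positions are chr17:35505782-35506081 on the plus strand for Pou5f1, chr3:34649745-34650044 on the plus strand for Sox2, chr6:122707239-122707538 on the plus strand for Nanog, chr8:43306960-43307259 on the minus strand for Zfp42 and chr1:136960399-136960698 on the minus strand for Nr5a2.
Pou5f1: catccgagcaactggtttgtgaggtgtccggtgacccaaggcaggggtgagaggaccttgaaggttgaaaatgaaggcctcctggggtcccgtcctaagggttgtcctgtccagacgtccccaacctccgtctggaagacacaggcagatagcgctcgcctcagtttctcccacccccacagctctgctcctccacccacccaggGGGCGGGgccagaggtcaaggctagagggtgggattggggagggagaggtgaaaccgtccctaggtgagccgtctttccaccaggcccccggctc
Sox2: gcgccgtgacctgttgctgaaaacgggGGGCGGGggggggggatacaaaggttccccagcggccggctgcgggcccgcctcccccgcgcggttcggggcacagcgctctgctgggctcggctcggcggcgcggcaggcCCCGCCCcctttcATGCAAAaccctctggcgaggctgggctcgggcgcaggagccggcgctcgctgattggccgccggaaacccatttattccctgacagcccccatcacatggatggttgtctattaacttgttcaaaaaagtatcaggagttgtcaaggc
Nanog: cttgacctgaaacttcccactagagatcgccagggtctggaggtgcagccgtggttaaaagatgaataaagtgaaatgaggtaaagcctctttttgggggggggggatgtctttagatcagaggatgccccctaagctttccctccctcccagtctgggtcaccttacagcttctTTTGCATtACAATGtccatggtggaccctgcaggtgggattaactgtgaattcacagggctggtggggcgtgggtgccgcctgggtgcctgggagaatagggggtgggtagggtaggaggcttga
Zfp42: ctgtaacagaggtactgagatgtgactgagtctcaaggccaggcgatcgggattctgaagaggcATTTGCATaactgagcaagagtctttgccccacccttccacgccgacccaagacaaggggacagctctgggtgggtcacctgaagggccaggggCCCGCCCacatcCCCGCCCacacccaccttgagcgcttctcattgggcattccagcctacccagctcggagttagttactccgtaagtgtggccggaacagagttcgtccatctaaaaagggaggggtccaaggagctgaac
Nr5a2: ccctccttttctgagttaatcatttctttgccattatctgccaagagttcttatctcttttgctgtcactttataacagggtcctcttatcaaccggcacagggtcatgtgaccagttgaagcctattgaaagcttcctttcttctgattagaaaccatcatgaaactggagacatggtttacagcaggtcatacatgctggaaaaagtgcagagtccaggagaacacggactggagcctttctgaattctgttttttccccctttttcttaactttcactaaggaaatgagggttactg

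The full octamer was found in the Zfp42 window, 186 bases before the start, and in 1.74% of all 32851 promoter windows. Its core was in the windows of Sox2, Nanog and Zfp42 and in 4.63% of all windows. In Nanog the octamer core and the SOX core stood 1 base apart on the same strand, 75 and 67 bases before the start. An octamer beside a SOX site is the arrangement that Oct4 and Sox2 are known to bind as a pair. This arrangement of the cores was present in 2 of the 32851 windows, which are the 2 overlapping windows of Nanog. It was looked for after the Nanog sequence had been read, as were the cores.

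The GGGCGGG motif was present in windows of Pou5f1, Sox2 and Zfp42 and in 25.6% of all windows. The SOX motif itself occurred in the other Pou5f1 window and in 3.78% of all windows. That window, chr17:35508557-35508856, lies within the gene. The SOX core was present in windows of Esrrb, Nanog and Pou5f1 and in 12.6% of all windows, and in Esrrb it lay after the start. No window of the 8 factors held the ESRRB and NR5A2 motif TCAAGGTCA, found in 0.423% of all windows, or the STAT3 motif TTCCNGGAA, found in 1.15%. Both Nr5a2 windows and the Tfcp2l1 and Nr0b1 windows held none of these motifs. 

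All 10 factors were higher in the microchamber, by 0.08 to 0.97 log2 units with a median of 0.31, which is 1.24-fold. Across the 19099 genes past the filter on low signal, 46.9% were above 0 and the median difference was -0.01. A difference of at least 0.25 log2 units (1.19-fold) in the upward direction was seen for 6 of the 10 factors, against 12.3% of all genes. Sox2 lay just inside that threshold at 0.25, and Zfp42 just outside it at 0.22. None of the 10 was 2-fold apart, whereas 0.346% of all genes passed 2-fold upwards and 0.445% downwards.

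**Figure D1:**
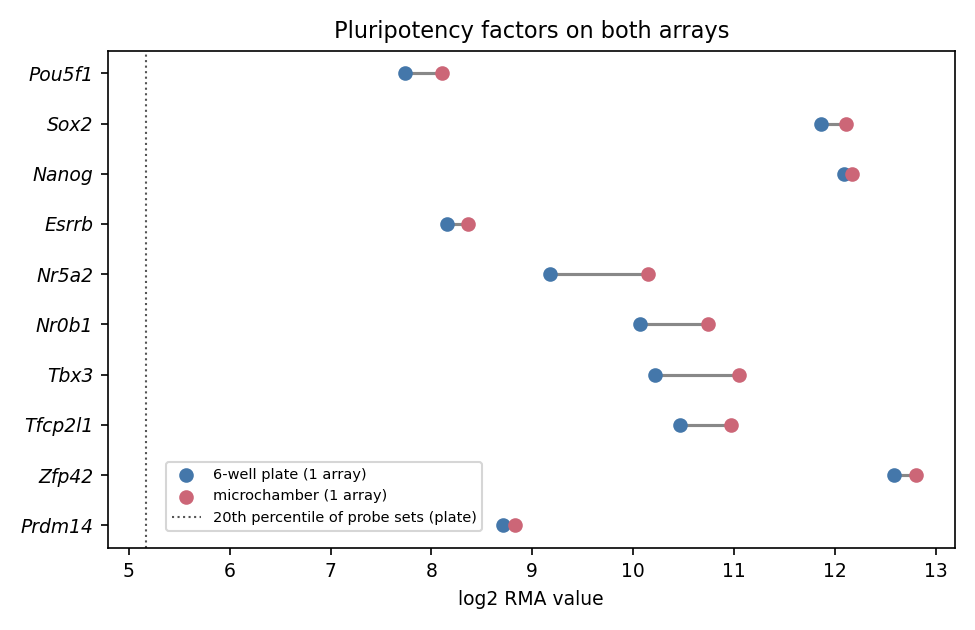
Log2 RMA values of the 10 factors on the 6-well plate array (blue) and the microchamber array (red), 1 array each, with a line joining the pair and the 20th percentile of probe sets on the plate array as a dotted line. The microchamber value is the higher of the pair for every factor, with the widest gap for Nr5a2 (0.97) and the narrowest for Nanog (0.08).

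All 10 lay well above the floor of the arrays, between 7.74 and 12.58 on the plate and between 8.10 and 12.81 in the chamber. The 20th percentile of probe sets with 1 symbol was at 5.17 and 5.18 on these arrays. By mean value 8 of the factors belonged to the highest of 4 equal groups of genes, and Pou5f1 and Esrrb to the next. In the highest group 47.9% of genes were above 0 and 19.4% were at least 0.25 higher. All 8 factors in it were above 0, and 5 of them were at least 0.25 higher. The standard deviation of the differences was 0.35 in that group and 0.36 in the next, and 5 of the 10 factors exceeded 1 such standard deviation. The smallest of these 5 was Pou5f1, which barely did so, at 0.364 against a standard deviation of 0.362 in its group. Its difference was reached by 7.08% of all genes and by 11.9% of the highest group, to which it does not belong. Where a gene had 2 probe sets past the filter (793 genes), the standard deviation of the difference between probe sets of one gene was 0.21, a spread that 7 of the factors exceeded and Nanog, Esrrb and Prdm14 did not. The smallest of those 7 was Zfp42 at 0.22, which 13.9% of all genes and 21.7% of the highest group reached. Neither spread measures how much separate cultures vary.

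**Figure D2:**
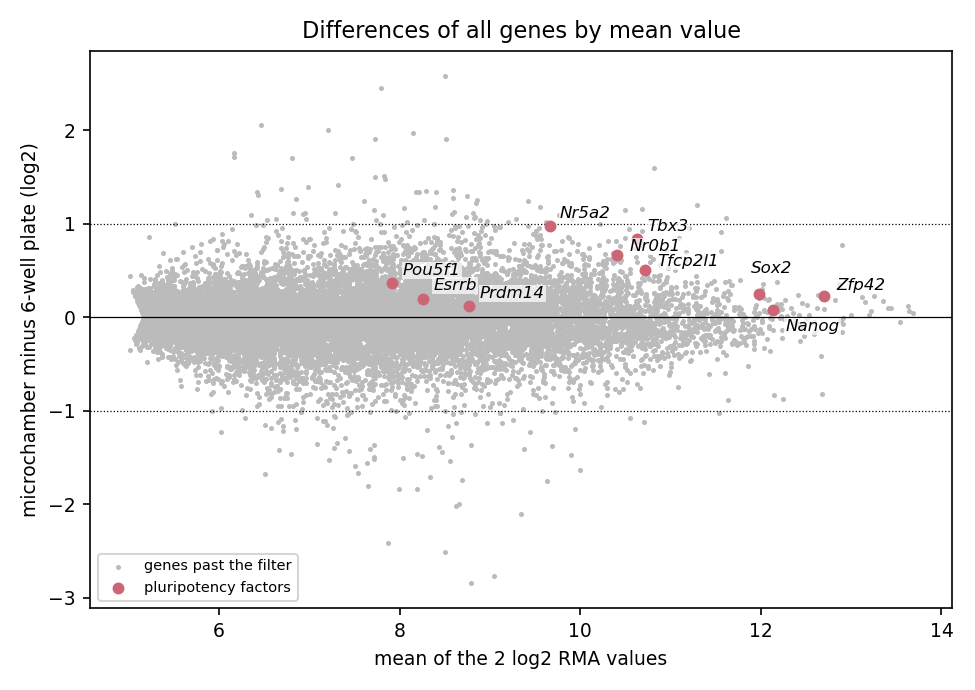
Difference in log2 units, microchamber minus 6-well plate, against the mean of both log2 RMA values for 19099 genes (grey) and the 10 factors (red, named), with dotted lines at 2-fold. The factors all lie above 0 and below the upper dotted line. Nr5a2, Tbx3 and Nr0b1 are the highest of the 10, and grey points lie above each of them.

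The 3 core factors differed by small amounts. Pou5f1, the POU homeodomain factor without which pluripotent cells lose their identity, lies on chromosome 17 (35506032 to 35510777, GRCm38). It was at 7.74 on the plate against 8.10 in the chamber, a difference of 0.36 (1.29-fold) that 7.08% of all genes reached or passed upwards. Sox2, the HMG-box partner of Oct4 on chromosome 3 (34649995 to 34652461), was at 11.86 on the plate against 12.11 in the chamber, a difference of 0.25 that 12.2% of genes reached.

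Nanog, a homeodomain factor that makes self-renewal more stable, lies on chromosome 6 (122707489 to 122714633). Its log2 values were 12.10 on the plate against 12.17 in the chamber. This difference of 0.08 (1.05-fold) was the smallest of the 10, and 32.1% of all genes were at least as far above 0.

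Nuclear receptors made up another 3 of the factors and were spread widely. Nr5a2 (Lrh-1), an orphan receptor that binds regulatory regions of Pou5f1 and can take its place in reprogramming, lies on chromosome 1 (136842562 to 136960448). It was at 9.17 on the plate against 10.15 in the chamber. The difference of 0.97, or 1.96-fold, ranked 81 among the 19099 genes, and 0.424% of them were at least as high.

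Nr0b1 (Dax1), a receptor without the usual DNA-binding domain that acts mainly as a corepressor and binds both Oct4 and Nr5a2, lies on chromosome X (86191775 to 86195947). Its values were 10.07 on the plate against 10.74 in the chamber, a difference of 0.67 (1.59-fold) reached by 1.72% of genes. Esrrb, an orphan receptor that is a direct target of Nanog and can stand in for it, lies on chromosome 12 (86361117 to 86521628). It was at 8.16 on the plate against 8.36 in the chamber, and 16.0% of genes reached its difference of 0.20. The receptor and its corepressor, Nr5a2 and Nr0b1, were thus each reached by under 2% of all genes, while Esrrb was not. Within the highest group by mean value, where both belong, 0.775% of genes reached Nr5a2 and 3.14% reached Nr0b1.

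Tbx3 and Tfcp2l1 are the factors most directly tied to outside signals. Tbx3, a T-box factor known to act downstream of AKT signalling and to sustain Nanog, lies on chromosome 5 (119670534 to 119684724). It was at 10.21 on the plate against 11.05 in the chamber, a difference of 0.83 (1.78-fold) that 0.791% of genes reached. Tfcp2l1, a CP2 family factor and a target of STAT3 downstream of LIF, lies on chromosome 1 (118627923 to 118685168) and was at 10.46 on the plate against 10.97 in the chamber. Its difference of 0.51 was 1.42-fold, and 3.48% of genes were at least as high. Within the highest group by mean value, where both belong, 1.57% of genes reached Tbx3 and 6.07% reached Tfcp2l1.

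The zinc finger factors differed little. Zfp42 (Rex1), a relative of YY1 widely used as a reporter of the naive state, lies on chromosome 8 (43295067 to 43307009). Its log2 values were 12.58 on the plate against 12.81 in the chamber, and 13.9% of genes reached its difference of 0.22 (1.17-fold). Prdm14, which restrains fibroblast growth factor signalling and DNA methyltransferase genes, lies on chromosome 1 (13113428 to 13127163) and was at 8.71 on the plate against 8.83 in the chamber. That difference of 0.12 was reached by 25.7% of genes.

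Among the 10, Nr5a2, Tbx3 and Nr0b1 lay above 0.58, the upper end of the middle 95% of all differences, and Tfcp2l1 below it. That range includes genes of low signal, which vary less. In the highest group by mean value, where these factors belong, 0.775% of genes reached Nr5a2, 1.57% Tbx3 and 3.14% Nr0b1. The 3 core factors ranged from 0.08 to 0.36 with a median of 0.25, and the 7 naive factors from 0.12 to 0.97 with a median of 0.51. These ranges overlap, since Prdm14, Esrrb and Zfp42 lay among the core factors. Whether core and naive factors differ was not tested.

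Genes with a pair of values closest to those of a factor were found by Euclidean distance over the 2 log2 values. With 2 arrays many genes come close to any point. The nearest to Nr5a2 was Ccnl1, a cyclin linked to splicing, at 9.12 and 10.14 (distance 0.060). The nearest to Tbx3 was Ranbp17 at 10.21 and 11.09 (distance 0.040), the nearest to Pou5f1 was Rnf121 at 7.73 and 8.10 (distance 0.0043), and the nearest to Nanog was the ribosomal protein gene Rps3 at 12.09 and 12.15 (distance 0.028). Those for the other factors were Srrm2 for Sox2, Hsd17b11 for Esrrb, D6Wsu116e for Nr0b1, Akap8 for Tfcp2l1, Eif1 for Zfp42 and Kidins220 for Prdm14.

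The factors were set beside relatives from their own gene families. Of 13 POU genes past the filter none was as high as Pou5f1, and they ranged from -1.08 for Pou2f3 to 0.20 for Pou4f1. Pou2f3, a POU factor of epithelia, was at 7.62 on the plate against 6.54 in the chamber and was the only one 2-fold apart. Pou3f1 (Oct6), which is switched on as cells leave the naive state, was at -0.48, and the broadly expressed Pou2f1 (Oct1) was at 0.15. For the nuclear receptors, all 5 relatives (Esrra at -0.01, Esrrg, Nr5a1, Nr0b2 and Nr6a1) lay between -0.24 and 0.00, below Esrrb, Nr5a2 and Nr0b1. Nr6a1 (Gcnf), a repressor of Pou5f1 during differentiation, was the lowest, with 7.04 on the plate against 6.80 in the chamber.

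Tbx3 lay above all 15 T-box relatives past the filter, of which Mga was the highest at 0.49 and Tbx2 next at 0.17, while Eomes at -0.31 and Tbx6 at -0.30 were the lowest. Tfcp2l1 lay above its 5 relatives, from Grhl3 at -0.50 and Tfcp2 at -0.29 to Grhl2 at 0.03 and Ubp1 at 0.28. In the other families some relatives were higher than the factor. Sox21 at 0.44 and Sox4 at 0.31 were above Sox2 among 19 SOX genes, Yy1 at 0.30 was above Zfp42, and 4 of 14 PRDM genes were above Prdm14, led by Prdm1 (Blimp1) at 0.71 and Prdm4 at 0.25.

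Sox15, a SOX factor that can also pair with Oct4 in embryonic stem cells, went the other way from Sox2. It was at 10.37 on the plate against 9.47 in the chamber, a difference of -0.90. Sox12 was at -0.82. Prdm10 at -0.42 and Prdm9 at -0.16 were the lowest PRDM genes. Many relatives lay close to the floor, where differences are compressed. The lowest of the 4 groups by mean value had a standard deviation of 0.13. Their small differences do not show unchanged expression.

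The nearest named protein-coding genes on each side of the factors were read from the RefSeq gene table. Of 20 neighbours 16 were past the filter, and they were split evenly, 8 above 0 and 8 below, with a median of 0.01 and a range from -0.57 to 0.41. Every one of the 10 factors was higher than each of its own neighbours past the filter. Some of these neighbours lay close to the floor, where differences are compressed, such as Tbx5 at 5.19 on the plate and H2-Q10 at 5.55. Sox2, Nr5a2, Nr0b1 and Zfp42 had a neighbour past the filter on a single side. Tcf19, which lies 1953 bases from Pou5f1, was at 8.05 on the plate against 7.65 in the chamber, while H2-Q10 on the other side was at 0.04. Next to Nanog, the glucose transporter gene Slc2a3 had 12.55 and 12.30, and Dppa3 (Stella), itself a naive marker, had 6.16 and 6.00.

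Zfp281, the neighbour of Nr5a2 at a distance of 212 kb and itself a zinc finger factor of the pluripotency network, was at 9.04 on the plate against 9.45 in the chamber. Atp11b beside Sox2 was the lowest neighbour at -0.57, at a distance of 1102 kb. Around Tbx3, Med13l was at 0.26 and Tbx5 at 0.04, and around Tfcp2l1, Clasp1 was at 0.07 and Gli2 at -0.31. Triml2 beside Zfp42 was at 0.19, and Mageb4 beside Nr0b1 at -0.11. Gpatch2l and Vash1 beside Esrrb were at 0.15 and -0.02, and Slco5a1 and Ncoa2 beside Prdm14 at -0.29 and 0.11, the last close to the 0.12 of Prdm14 itself.

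**Figure D3:**
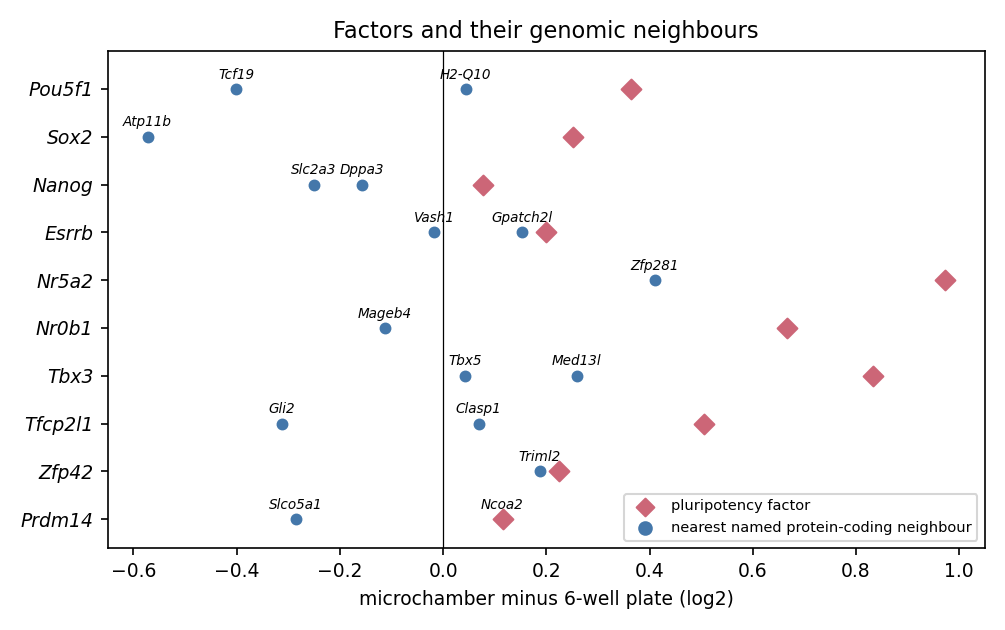
Differences in log2 units, microchamber minus 6-well plate, for each factor (red diamonds) and for its nearest named protein-coding neighbours past the filter (blue, named). The neighbours range from -0.57 (Atp11b) to 0.41 (Zfp281), and each factor lies to the right of its own neighbours, though Prdm14 and Ncoa2 nearly coincide.

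Near-identical copies can share array signal. Of the Pou5f1, Nanog and Zfp42 pseudogenes in the RefSeq table, 1 had a probe set of its own, Gm5712 (Pou5f1-rs4), with 6.17 on the plate against 6.16 in the chamber. The probe set shared by Sox2ot, the transcript that overlaps Sox2, and Mir1897 was at 5.50 and 5.62. Neither probe set was high on either array, and both were picked after their values were seen.

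Other transcription factors of the network were mostly higher, though not all. Of 25 partner factors 18 were above 0, where 46.9% of all genes were. At least 0.25 higher were 10, where 12.3% of all genes and 19.4% of the highest group by mean value were. At least 0.25 lower were 4, where 15.1% of all genes were. The median was 0.16, and none was 2-fold apart. Klf2, a Krüppel-like factor of the naive state, was at 9.99 on the plate against 10.81 in the chamber, and Foxd3, a forkhead factor, had 6.99 and 7.67. The lowest were Tfap2c at -0.62, an AP-2 factor shared with trophectoderm, and Zfp143 at -0.57, a zinc finger activator of Nanog.

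Genes that carry signals to the network went both ways, with 13 of 24 above 0, 7 at least 0.25 higher, 6 at least 0.25 lower and a median of 0.07. Over all genes 46.9% were above 0, 12.3% at least 0.25 higher and 15.1% at least 0.25 lower. Bmp4, a ligand that with LIF supports self-renewal, was at 10.69 on the plate against 11.89 in the chamber (2.29-fold). Tcf7l1 (Tcf3), a repressor of Nanog, Esrrb and other naive genes, was at 0.90, with 8.37 and 9.27. The lowest were Socs3, the feedback inhibitor of LIF signalling, at -0.95, and Id1, a BMP target, at -0.57. The Id genes did not go one way, as Id2 was at -0.28 and Id3 at 0.66, both singled out afterwards. Nanog and Esrrb, named above as genes that Tcf7l1 represses, were at 0.08 and 0.20, less than the spread of 0.21 between probe sets of one gene. Other naive factors were higher, up to Nr5a2 at 0.97. Whether Tcf7l1 bears on any of the factors was not tested.

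Target genes of the core factors went both ways. Of 19 measured, 9 were above 0, a share close to the 46.9% of all genes, and the median was -0.04. At least 0.25 higher were 8 and at least 0.25 lower 5, where 12.3% and 15.1% of all genes were. Lefty2, an inhibitor of Nodal, was at 6.21 on the plate against 8.21 in the chamber, and Tcl1, a coactivator of AKT, was 2.27-fold and Lefty1 2.06-fold higher. Upp1, which breaks down uridine, was at 10.82 on the plate against 9.18 in the chamber and was 3.11-fold lower. Tdgf1 (Cripto), a Nodal co-receptor, was at -0.82.

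Chromatin proteins that work with the factors had a median of 0.20, with 12 of 21 above 0, 8 at least 0.25 higher and 3 at least 0.25 lower. Over all genes these shares were 46.9%, 12.3% and 15.1%. In the highest group by mean value, to which all 21 belong, 19.4% of genes were at least 0.25 higher. The acetyltransferases Crebbp and Ep300 were the highest. Crebbp was at 9.72 on the plate against 10.71 in the chamber, and Ep300 had 9.55 and 10.15. Ezh2, the methyltransferase of Polycomb complex PRC2, was at -0.53 and the demethylase Kdm1a (Lsd1) at -0.50, and Cbfa2t2, a partner of Prdm14 singled out after its value was seen, was at -0.30.

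Formative and primed epiblast genes, which become active when the naive factors are shut down, had a median of -0.11, which was -0.33 with the filter on low signal at the median. Of 19, 8 were above 0, 4 were at least 0.25 higher and 8 were at least 0.25 lower, where 46.9%, 12.3% and 15.1% of all genes were. Otx2, a homeobox factor of this state, was nevertheless higher at 0.78, with 6.96 on the plate against 7.74 in the chamber, and Foxd3 is also on this list. Lef1, a WNT effector, had 8.37 and 6.71 (3.17-fold lower), and Fgf15 was at -0.72. The DNA methyltransferases Dnmt3a at -0.60 and Dnmt3b at -0.38, singled out afterwards as genes that Prdm14 restrains, were lower. Prdm14 itself was at 0.12, less than the spread of 0.21 between probe sets of one gene. Any link between them was not tested.

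**Figure D4:**
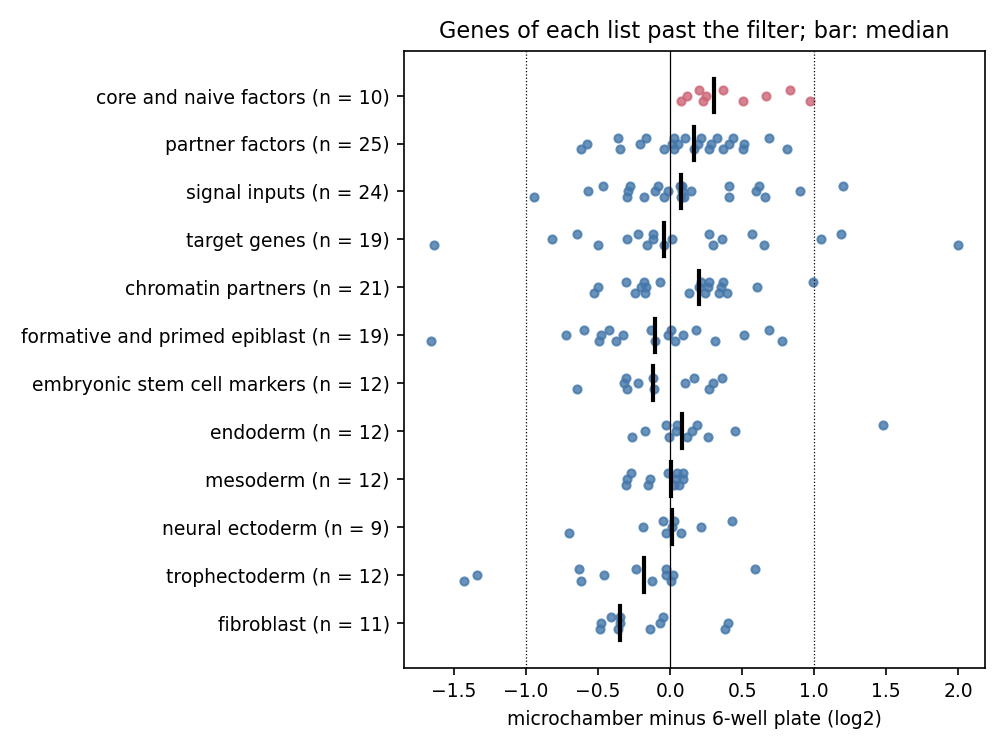
Differences in log2 units, microchamber minus 6-well plate, for the 10 factors (red) and for the genes of 11 other lists past the filter (blue), each point a gene and each black bar the median. The factors are the only row with all points above 0, and the other medians run from -0.35 (fibroblast) to 0.20 (chromatin partners).

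For the labelled cell type, 12 other markers of embryonic stem cells were read, and all were past the filter. Passing it does not show the cell type, since all 12 endoderm, 12 mesoderm and 12 trophectoderm markers passed it too. Fut4 was weak, at 5.81 on the plate against 5.49 in the chamber. The medians of probe sets with 1 symbol were 6.13 and 6.10. Of the 12 stem cell markers, 9 are also on the list of partner factors or of target genes, so most are not a separate set. Above 0 were 5 of the 12, where 46.9% of all genes were. At least 0.25 higher were 3 and at least 0.25 lower 4, where 12.3% and 15.1% of all genes were. The median was -0.12, or -0.0021 with the brightest probe set of each gene. Tdh, the threonine dehydrogenase on which mouse embryonic stem cells depend, was at 11.85 on the plate against 12.21 in the chamber, and Gdf3 had 9.09 and 9.39. Lin28a, an RNA-binding protein that blocks let-7, was at -0.65, and Fut4, the enzyme behind the SSEA-1 antigen, at -0.32.

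Markers of other cell types were measured as well. Counts and medians are over markers past the filter, and summed signals over all markers on the array. Endoderm markers had a median of 0.08 with 8 of 12 above 0, where 46.9% of all genes were, and the median was 0.17 with the filter on low signal at the median. At least 0.25 higher were 3 and at least 0.25 lower 1, where 12.3% and 15.1% of all genes were. Their summed linear signal was 1719 on the plate against 2135 in the chamber. The marker with the highest signal was Lama1, singled out afterwards, at 9.51 on the plate against 9.70 in the chamber. Cubn, an uptake receptor of visceral endoderm, was 2.78-fold higher and Dab2 at 0.45, while Foxa1 was at -0.26 and Gata6 at -0.17. Mesoderm markers had a median of 0.00 with 6 of 12 above 0, and of -0.22 with the filter at the median. They summed to 762 and 719 and ran from Eomes and Tbx6 to Mesp1 and Fgf8 at 0.09 each. Neural markers had a median of 0.01 with 5 of 9 above 0, and of -0.02 without a filter. All 11 on the array summed to 1012 and 1059. They ran from Nes at -0.70 and Pax3 at -0.19 to Ncam1 at 0.21 and Tubb3 at 0.43.

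Of 12 trophectoderm markers 3 were above 0, where 46.9% of all genes were, and 5 were at least 0.25 lower, where 15.1% of all genes were. Their median was -0.18, or -0.62 with the filter at the median, and they summed to 1648 on the plate against 1317 in the chamber. Ascl2 was 2.70-fold lower and Krt19 2.53-fold lower, while Tead4 was at 0.59 and Plac1 at 0.02. Cdx2, the homeobox factor that defines trophectoderm, was singled out after its value was seen and was at 0.01. Fibroblast markers had a median of -0.35 with 2 of 11 above 0 and 6 at least 0.25 lower, and the median was -0.11 without a filter. All 14 on the array summed to 7196 and 7778, a sum led by Fn1, which was at 11.98 on the plate against 12.37 in the chamber. S100a4 was at 0.40 with a plate value of 5.16, just under the filter, and Pdgfrb at -0.49 and Twist2 at -0.48 were the lowest. RMA values have no 0, and 2 neural and 3 fibroblast markers lay below the filter on both arrays. The part of other cell types in the differences of the 10 factors was not tested.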

How the data were processed

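Total RNA from 1 plate culture and 1 microchamber culture was measured on 2 arrays. With RMA the authors removed background, summarised probes per probe set and normalized between arrays, giving log2 values, per the series design text. That text also states a lower cut-off at the 20th percentile of raw signal. Affymetrix Expression Console 1.4.1 and Transcriptome Analysis Console 3.0 appear in the submitters' processing notes, and the file headers name mm10. Beside these values the authors deposited a log2 fold change and an absolute fold (a ratio without direction), per the file headers. The deposited log2 fold change equalled plate minus chamber within 1e-06. RMA gives both arrays one distribution, so a change of most genes in one direction would not be seen. No depth applies to arrays, and their number limits the precision.

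Probe sets with 1 symbol (24708 of 33793) were averaged per gene, and a gene was kept when either array reached the 20th percentile of these probe sets, which left 19099 of 23370 genes. Gene coordinates are those of the RefSeq table for GRCm38. Python 3.11.15 with pandas 2.3.3 and statsmodels 0.14.6 was used. A self-check on shuffled differences covered a planted shift of the median, centring and removal of a trend. Its outcome was largely fixed by the arithmetic, and it did not test the choice of columns, the filter or the lists. Of the genes on the lists, Gsk3a, Eras and Yy2 have probe sets shared with another gene and Map2 was not matched, so they were left out. The members and lists were chosen with earlier results of these data known. The genes named are all 10 factors, the 2 highest and 2 lowest genes of each list and any gene 2-fold apart, the relative with the highest mean value in each family, the nearest neighbours and the gene nearest in value to each factor. Others are said to be so. One gene that this rule names is not reported here. The alternatives were the value table of the series, centring, removal of a loess trend (span 0.3), the brightest probe set, shared probe sets under each symbol, no filter and a filter at the median.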

Additional observations from a re-analysis of the deposited data

How the results depend on the processing

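All 10 factors stayed above 0 under each of the 7 alternatives, and no factor's difference shifted by more than 0.042 log2 units. Only centring and removal of the trend could change these differences. Each factor has 1 probe set, well above the floor, and the value table of the series holds the same values. The other alternatives therefore say nothing on how stable the factors are. The median of the 10 ran from 0.31 to 0.34. The count at least 0.25 higher was 6, and 7 after the loess trend was removed. None became 2-fold apart. Each factor stayed above its own neighbours past the filter under every alternative, with 9 factors left that had such a neighbour when the filter was at the median.

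Medians of 4 lists shifted by more than the spread of 0.21 between probe sets of one gene. With the filter at the median, which leaves fewer genes of low signal, trophectoderm was at -0.62, formative and primed epiblast at -0.33 and mesoderm at -0.22. Without a filter, fibroblast was at -0.11. Medians close to 0 changed sign: the PRDM relatives, at -0.01, came to 0.01 after centring or removal of the trend and to 0.02 under the median filter, and neural ectoderm was at -0.02 without a filter or with shared probe sets. No paired analysis was possible because each group has 1 array. Signal close to the floor compresses the differences of weakly expressed genes.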
